A study of Mus musculus with 6 samples.

Results

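The genes described here are 10 long noncoding RNA genes that carry small nucleolar RNAs (snoRNAs) in their introns: Snhg1, Snhg3, Snhg5, Snhg6, Snhg8, Snhg12, Snhg15, Snhg17, Gas5 and Zfas1. They were picked by symbol out of the 55401 gene rows of one count table, each symbol had a single row, and all 10 were among the 17573 genes with enough counts to be tested. The choice read gene names and no counts. It was made, however, when results of the same comparison were already known, so fold changes and p-values of these 10 genes are given as descriptions and are no independent evidence that the family moved.

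RNA was labelled with 4-thiouridine (4sU), a uridine analogue taken up into newly made RNA, then biotinylated, pulled down on streptavidin beads and sequenced. The cells were 129/Ola mouse embryonic stem cells in medium with serum and leukemia inhibitory factor, described as ZFP207AID cells: a degron on the zinc finger protein ZFP207 lets auxin trigger its breakdown. The depleted group is 3 libraries from cells given the auxin indole-3-acetic acid (IAA) for 5 h, with a genotype label that names ZFP207 degradation. The control group is 3 libraries at 0 h of IAA, with the genotype label WT, and the titles place them in the same degron line. Should WT mean untagged cells, the cell line would differ between the groups as well. Effects of IAA itself and of ZFP207 loss cannot be told apart, since degron-free cells with IAA were not analysed here. The sources used here do not say whether the line is a single clone, how long the 4sU pulse was or whether libraries kept strand. The series asks how ZFP207 bears on U1 snRNP, the particle that marks where an intron begins, and the introns of these 10 genes hold the snoRNAs that splicing has to release.

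A snoRNA guides a chemical change in another RNA, most often ribosomal RNA. Box C/D snoRNAs direct ribose methylation and box H/ACA snoRNAs direct the conversion of uridine to pseudouridine. In mammals nearly all of them are cut out of spliced introns. In the noncoding hosts the intron is thus the lasting product, while the joined exons are known to be exported, met by ribosomes on short reading frames and destroyed by nonsense-mediated decay (NMD). Many hosts are known to begin transcription on a terminal oligopyrimidine (TOP) start, a C followed by a run of pyrimidines, which they share with ribosomal protein genes.

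The depleted libraries held between 14336811 and 23385133 counts, against 17613103 to 25916628 in the controls. The 10 genes together took 59440, 44548 and 36011 counts in depleted replicates 1 to 3 and 53593, 24747 and 34686 in control replicates 1 to 3. Zfp207 RNA, which does not report on a degraded protein, stood at 695, 1467 and 596 CPM in depleted libraries and 545, 1116 and 548 CPM in controls (CPM are counts scaled to library size with edgeR's TMM, the unit used below for levels). It was higher in the depleted library of all 3 pairs and rose 1.22-fold in the fit with the replicate number as a block (edgeR adjusted p = 0.0196), while the fit without it gave a log2 ratio of 0.32 (SE 0.38, edgeR adjusted p = 0.823). The block fit no longer called it without pair 1 or pair 2. The 8 embryonic stem cell markers that were checked summed to between 4247 and 4746 CPM in depleted libraries and between 3847 and 4405 CPM in controls. Of these 8, the block fit called 1 higher, Utf1 (1.32-fold, edgeR adjusted p = 0.0126), and 0 lower, where it called 4.96% and 7.9% of all tested genes. Of 8 feeder fibroblast markers, 4 (Col3a1, Postn, Lum and Dcn) had no count in any library, and the list summed to between 2.99 and 5.69 CPM in depleted libraries and between 6.05 and 10.9 CPM in controls. The 5 primitive endoderm markers summed to 4.11 to 7.72 CPM in depleted libraries and 3.13 to 5.63 CPM in controls. The 4 mesoderm and neural markers, of which T was at 0 throughout, summed to 10.6 to 20.9 CPM in depleted libraries and 14.2 to 17.8 CPM in controls. The part of these other cell types in the results was not tested. In bulk libraries such as these, fewer cells of a type and less RNA per cell cannot be told apart.

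By their median the hosts lay higher after IAA, and Snhg3 lay farthest from its control level. Their median log2 fold change (depleted over control) was 0.40, beside 0.02 for all 17573 tested genes, 0.14 for 5040 tested genes that span less than 10 kb, as all 10 hosts do, and -0.26 for 764 tested genes that RefSeq annotates as lncRNA. In this unpaired fit of edgeR's quasi-likelihood test, 0 of the 10 were called at an adjusted p under 0.05 in either direction, where 0.0114% of all tested genes were called higher and 0.78% lower. At an unadjusted p under 0.05 it held 2 of them, Snhg3 and Gas5, beside 10.9% of all tested genes in either direction, and DESeq2 called Snhg3 alone, where it called 0.353% of all tested genes higher and 3.29% lower.

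Replicate numbers were taken as pairs, although the labels do not say what a number stands for. Depleted and control libraries of the same number deviated together from their group means over all genes. The calls with a block rest on this choice. With the replicate number as a block (the paired fit), Snhg1, Snhg3, Snhg5, Snhg12 and Gas5 rose and none of the 10 fell. The same fit called 4.96% of all tested genes higher and 7.9% lower. Of the 10 hosts, 9 were higher in the depleted library of all 3 pairs, against 24.2% of all tested genes, the exception being Snhg6, and 0 were lower in all 3, against 24.1%. Only Snhg3 and Gas5 of the 10 had depleted libraries that all lay above all controls, a pattern that 6.94% of tested genes showed, and 0 had the reverse, which 11.8% showed. These shares are set beside the counts as background, and nothing is read from them, because the genes were listed with this comparison known.

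**Figure D1:**
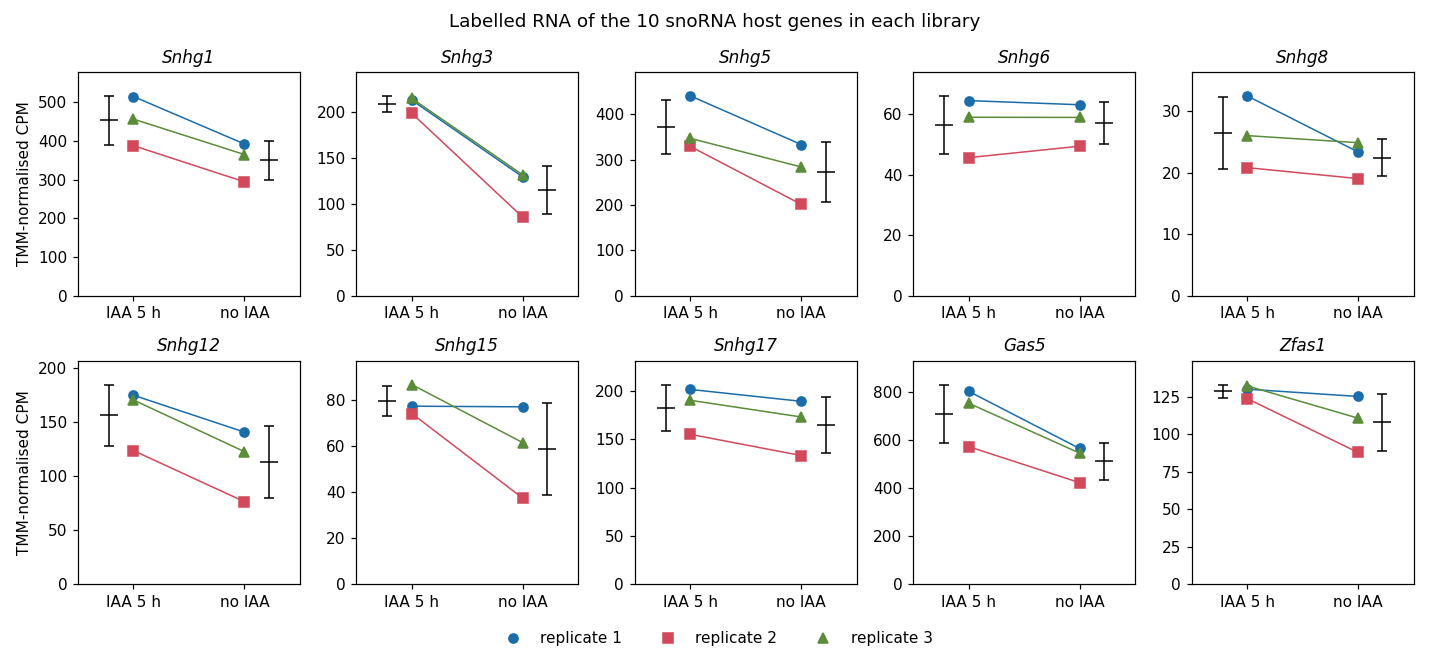
Level of each of the 10 snoRNA host genes in TMM-normalised CPM (vertical axes from 0) in the 3 libraries with IAA for 5 h and the 3 without. Lines join libraries of one replicate number, and the bars beside the points are mean and SD (n = 3). Snhg3 and Gas5 are the genes whose groups do not overlap, and replicate 2 is the lowest library of both groups in all 10 genes.

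Replicate 2 stood below the other libraries of its group for every host. This held in both groups for 10 of 10 hosts, and for 25.7% of all tested genes. Within groups the hosts therefore moved together. Over the 45 gene pairs, the deviations of log2 CPM from the group mean correlated with a median r of 0.88 across the 6 libraries (lowest 0.49, highest 0.99). All genes share the same libraries and scaling. This r was not computed among other genes, so it is not known to be particular to the hosts. The sum of the 10 genes was 2653, 2033 and 2438 CPM in depleted replicates 1 to 3 and 2040, 1408 and 1879 CPM in control replicates 1 to 3. Depleted replicate 2 thus lay just under control replicate 1, and the groups overlapped although each pair ran the same way.

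Sequences around the annotated starts are shown for the TATA-type hexamers and TOP-like runs that some of these hosts carry there. RefSeq's GRCm38.p6 tables, the source of all coordinates here, gave a start for 9 of the 10 genes (Snhg6 is named only). The 50 bases before and 50 from the start on are printed, 5′ to 3′ on the gene's strand, for the 6 genes with a TATA-type hexamer there. These are the 5 genes that rose in the paired fit and Snhg8, which was not called. Starts without a hexamer, among them the upstream start of Gas5, are not printed. A link between the hexamer and the change in level was not tested. Capitals mark a TATA-type hexamer (TATAAA or TATATA, searched on both strands, so that TTTATA also counts) and a C with at least 4 pyrimidines behind it that begins within 10 bases of the start.
Snhg1, chr19:8723437-8723536, plus strand: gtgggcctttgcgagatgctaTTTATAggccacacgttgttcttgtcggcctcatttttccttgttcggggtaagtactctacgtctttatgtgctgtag
Snhg3, chr4:132353637-132353736, minus strand: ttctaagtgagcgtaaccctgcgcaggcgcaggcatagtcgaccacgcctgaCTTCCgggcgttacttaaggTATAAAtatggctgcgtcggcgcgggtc
Snhg5, chr9:88522848-88522947, minus strand: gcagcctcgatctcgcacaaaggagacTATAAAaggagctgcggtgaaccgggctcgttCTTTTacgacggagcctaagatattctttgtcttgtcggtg
Snhg8, chr3:123508287-123508386, minus strand: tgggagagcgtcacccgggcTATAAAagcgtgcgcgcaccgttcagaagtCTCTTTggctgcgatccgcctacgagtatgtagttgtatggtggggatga
Snhg12, chr4:132308628-132308727, plus strand: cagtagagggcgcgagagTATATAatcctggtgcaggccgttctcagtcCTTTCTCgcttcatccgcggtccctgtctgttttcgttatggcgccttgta
Gas5, the downstream of its annotated starts, chr1:161035116-161035215, plus strand: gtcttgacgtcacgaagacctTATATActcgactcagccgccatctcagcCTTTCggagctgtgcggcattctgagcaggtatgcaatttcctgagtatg

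A TATA-type hexamer lay within these 100 bases in 6 of the 9 genes (66.7%), against 7.29% of 27025 genes with an entry. The hexamers were chosen after data were seen, so nothing is read from the difference between these shares. The 6 are the genes printed above, and Snhg15, Snhg17 and Zfas1 had none. In Snhg3 the hexamer lies downstream of the annotated start. A TOP-like run near the start was found in Snhg3, Snhg5, Snhg8, Snhg12 and Gas5, that is 5 of 9 (55.6%), against 34.4% of all genes, and with at least 6 pyrimidines in Snhg12 alone, against 14.1% of all genes. Over the whole 300-base entry the run was in 8 of 9 hosts on the gene's strand and in 9 of 9 on the other, against 98.4% and 98.6% of all genes. These matches describe letters in a window and say nothing about which factors bind there.

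Snhg3 hosts the box H/ACA snoRNAs Snora73a and Snora73b, which act in ribosomal RNA processing more than in modification (ENSMUSG00000085241.7, chromosome 4, 132351933 to 132353686, 1754 bp). Its level was 213, 198 and 214 CPM in depleted replicates 1 to 3, against 129, 85.2 and 131 CPM in control replicates 1 to 3. The lowest depleted library stood well above the highest control, and the depleted libraries lay close together. The mean was 208 ± 8.88 CPM in depleted and 115 ± 25.97 CPM in control libraries (SD, n = 3 each), a log2 fold change of 0.86 (SE 0.18, edgeR adjusted p = 0.0859). Snhg3 rose 1.84-fold in the paired fit (edgeR adjusted p = 1.93e-04), and DESeq2 without the block also called it (DESeq2 adjusted p = 0.00107). The depleted over control ratio was 1.65, 2.33 and 1.63 in pairs 1 to 3.

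Gas5, a host that accumulates in growth-arrested cells and whose human RNA binds the glucocorticoid receptor, holds 8 snoRNA genes in RefSeq (ENSMUSG00000053332.13, chromosome 1, 161034601 to 161038539). It stood at 805, 574 and 755 CPM in depleted libraries, against 566, 424 and 547 CPM in controls. The groups did not overlap, by a narrow margin between depleted replicate 2 and control replicate 1. Means were 711 ± 121 CPM and 513 ± 77.2 CPM in depleted and control libraries (log2 fold change 0.47, SE 0.18, edgeR adjusted p = 0.362). Gas5 rose 1.38-fold in the paired fit (edgeR adjusted p = 6.41e-04), with ratios of 1.421, 1.35 and 1.38 in the 3 pairs, the closest agreement among the 10 hosts.

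Snhg1, known as a host of box C/D snoRNAs, holds 8 snoRNA genes and lies head to head with Slc3a2 (ENSMUSG00000108414.1, chromosome 19, 8723487 to 8726326). Its level was 515, 388 and 457 CPM in depleted libraries, against 392, 294 and 365 CPM in controls. Depleted replicate 2 fell just below control replicate 1, so the groups overlapped. Snhg1 rose 1.29-fold in the paired fit (edgeR adjusted p = 0.00376), where the unpaired fit gave a log2 ratio of 0.37 (SE 0.17, edgeR adjusted p = 0.465), and the ratios of the pairs were again close at 1.31, 1.32 and 1.25.

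Snhg5, whose human counterpart was found at a lymphoma translocation, holds 2 snoRNA genes (ENSMUSG00000097195.10, chromosome 9, 88521052 to 88522897). It had 441, 329 and 347 CPM in depleted libraries, against 333, 201 and 284 CPM in controls. Here too depleted replicate 2 lay just under control replicate 1. Snhg5 rose 1.38-fold in the paired fit (edgeR adjusted p = 0.00362), against an unpaired log2 fold change of 0.45 (SE 0.20, edgeR adjusted p = 0.477).

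Snhg12 carries Snora16a, Snora44, Snora61 and Snord99 and lies 40.9 kb from Snhg3 (ENSMUSG00000086290.9, chromosome 4, 132308678 to 132311024). Levels were 174, 123 and 170 CPM in depleted libraries, against 141, 76.3 and 122 CPM in controls. Depleted replicates 1 and 3 lay above all controls and depleted replicate 2 lay among them. Snhg12 rose 1.41-fold in the paired fit (edgeR adjusted p = 0.00377), beside an unpaired log2 fold change of 0.46 (SE 0.24, edgeR adjusted p = 0.538).

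Trnau1ap, a selenocysteine tRNA factor gene, and Rcc1, the exchange factor gene of the GTPase Ran, lie between Snhg12 and Snhg3 and were looked at after the values of the hosts were seen. Trnau1ap had 16.9, 17.7 and 25.8 CPM in depleted libraries, against 19.0, 14.7 and 23.6 CPM in controls. Rcc1 had 95.8, 110 and 104 CPM in depleted libraries, against 128, 99.1 and 112 CPM in controls. Both genes overlapped between groups, with log2 fold changes of 0.07 (SE 0.26) and -0.13 (SE 0.15), and neither was called in the unpaired (edgeR adjusted p = 0.954 and 0.817) or the paired fit (edgeR adjusted p = 0.827 and 0.494).

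The remaining 5 hosts were called in no fit over all 6 libraries. Snhg15, whose human RNA is short-lived and responds to chemical stress (ENSMUSG00000085156.8, chromosome 11, 6525591 to 6528760), had 77.2, 74.1 and 86.6 CPM in depleted libraries, against 77.0, 37.3 and 61.4 CPM in controls. Its pairs were the least alike of the 10 hosts, with ratios of 1.00, 1.98 and 1.41, and the paired fit gave 1.40-fold (edgeR adjusted p = 0.0593). Without replicate 1 the paired fit called it (edgeR adjusted p = 0.00168), and without replicate 2 the log2 fold change was 0.25 (edgeR adjusted p = 0.275).

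Zfas1, known in the mouse from mammary gland development, starts beside Znfx1 and holds 3 snoRNA genes (ENSMUSG00000074578.14, chromosome 2, 167062934 to 167065862). It stood at 130, 124 and 132 CPM in depleted libraries, against 125, 87.9 and 111 CPM in controls. Depleted replicate 2 lay just under control replicate 1, and the paired fit gave 1.20-fold (edgeR adjusted p = 0.0867).

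Snhg17 is the longest of the 10 loci (ENSMUSG00000085385.7, chromosome 2, 158353700 to 158361522, 7823 bp) and Snhg8 the shortest (ENSMUSG00000104960.1, chromosome 3, 123507552 to 123508336, 785 bp). Snhg17 had 202, 155 and 190 CPM in depleted libraries, against 189, 133 and 173 CPM in controls (log2 ratio of the paired fit 0.15, SE 0.08, edgeR adjusted p = 0.229). Snhg8 had 32.5, 20.9 and 26.1 CPM in depleted libraries, against 23.4, 19.1 and 24.9 CPM in controls (log2 ratio of the paired fit, 0.23, SE 0.15, edgeR adjusted p = 0.371). Both lay higher in the depleted library of each pair, with overlap between the groups.

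Snhg6, which carries Snord87 (ENSMUSG00000098234.7, chromosome 1, 9942025 to 9944118), had almost the same mean in both groups. It had 64.5, 45.7 and 59.0 CPM in depleted libraries, against 63.2, 49.5 and 59.0 CPM in controls. The means were 56.4 ± 9.71 CPM in depleted and 57.2 ± 7.03 CPM in control libraries (SD, n = 3 each), with a log2 ratio of -0.03 by the paired fit (SE 0.10, edgeR adjusted p = 0.909). Snhg6 is also the host with the longest annotated overlap with another gene, 1582 bases shared with the meiotic gene Mcmdc2, which had at most 58 counts in any library.

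**Figure D2:**
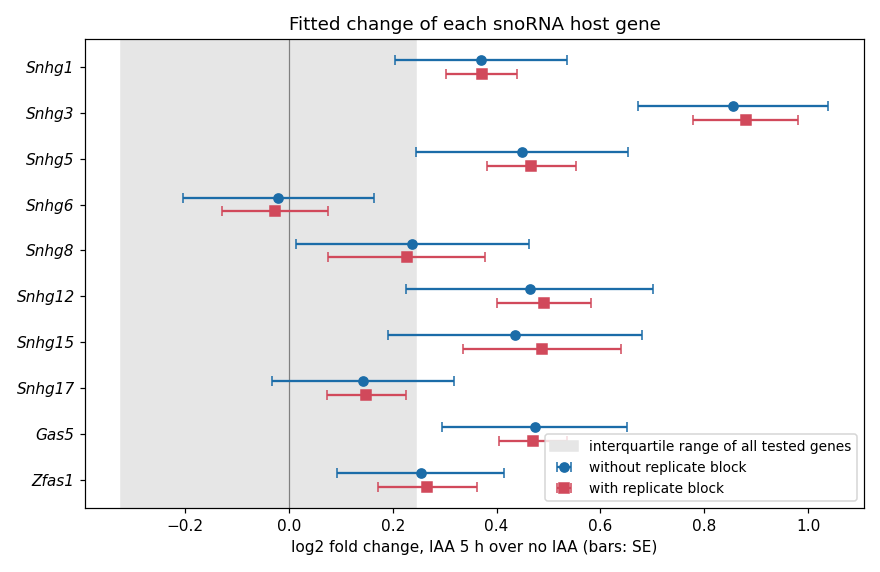
Log2 fold change of each host gene, IAA for 5 h over no IAA, from edgeR without (circles) and with (squares) the replicate block, with bars for the standard error. The grey band is the interquartile range of all 17573 tested genes, from -0.32 to 0.24. Estimates of the fits are close, from -0.03 for Snhg6 to 0.88 for Snhg3 with the block, while the bars of the blocked fit are shorter.

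The block altered the error far more than the size of the change. Snhg3 had a log2 fold change of 0.86 without the block and 0.88 with it, and the standard error was 0.18 and 0.10. For Gas5 the standard error was 0.18 without the block and 0.07 with it. Snhg1, Snhg3, Snhg5, Snhg12 and Gas5 were each called by the blocked fit whichever pair was left out. Control replicate 2 weighed most on the family's median in the unpaired fit, which was 0.22 without that library and between 0.29 and 0.51 when another was left out.

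Few counts fell on the snoRNAs themselves. RefSeq places 32 snoRNA genes inside the 10 hosts, 12 of their symbols were found in the count table on 13 rows, and 4 rows passed the filter on low counts. The other 20 snoRNA genes were not analysed here. The table gives no strand for snoRNAs, so they were placed by position alone. The 4 rows that passed had log2 fold changes above 0 and 0 were called by edgeR in either fit or by DESeq2, with Snora73a alone at an unadjusted p under 0.05 in the unpaired fit. Snora24, Snora16a, Snora44, Snora61, Snord99, Snord47 and Snord12 had at most 5 counts in any library. Snord22, from Snhg1, had 8, 3 and 7 counts in depleted libraries and 1, 1 and 2 in controls and was not tested.

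Snora73a, the snoRNA of the upstream part of Snhg3 by position, had 20.5, 25.05 and 17.1 CPM in depleted libraries, against 13.9, 5.29 and 12.7 CPM in controls. The groups did not overlap, and the ratio of pair 2 was 4.73 against 1.48 and 1.35 in the other pairs. The unpaired fit put it at 0.98 on the log2 scale (SE 0.36, edgeR adjusted p = 0.345), and 1.04 in the paired fit (SE 0.32, edgeR adjusted p = 0.0633). Snora73b from the same host had 29.2, 29.1 and 31.6 CPM in depleted libraries, against 26.8, 19.6 and 25.5 CPM in controls. It lay above all controls by a smaller step, with a log2 fold change of 0.32 (SE 0.19, edgeR adjusted p = 0.607) and of 0.33 in the paired fit (SE 0.15, edgeR adjusted p = 0.161).

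As a share of the host, Snora73b was lower in depleted libraries while Snora73a overlapped. The Snora73b count equalled 13.8, 14.7 and 14.7% of the Snhg3 count in depleted libraries, against 20.8, 23.0 and 19.4% in controls. Every depleted library was below every control, and the difference of the means was -6.69 percentage points. An exact two-sided permutation test that ignored the pairs gave p = 0.1, the smallest possible with 3 against 3. The divisor, Snhg3, was at 1.84-fold in the paired fit and Snora73b at 1.26-fold. The lower share is thus no separate evidence beside the rise of Snhg3. The Snora73a count equalled 9.66, 12.6 and 7.99% of the host's in depleted libraries, against 10.7, 6.21 and 9.66% in controls (same permutation test, p = 0.5). The difference between these snoRNAs was not tested. Reads that span a snoRNA and its intron can be assigned to either row, which these counts do not resolve.

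Snord87, the box C/D snoRNA of Snhg6, had 5.94, 2.60 and 4.06 CPM in depleted libraries, against 2.82, 3.59 and 3.52 CPM in controls. The snoRNA row Gm23201, in Zfas1, had 11.96, 7.94 and 12.7 CPM in depleted libraries, against 9.89, 4.33 and 8.34 CPM in controls. Both overlapped between groups and missed the threshold in the unpaired (edgeR adjusted p = 0.819 and 0.663) and paired fits (edgeR adjusted p = 0.699 and 0.120).

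Of 5 genes that overlap a host or start beside it, 0 rose and 2 fell in the paired fit. That fit called 4.96% of all tested genes higher and 7.9% lower. Zbtb37, a BTB zinc finger gene that overlaps the upstream end of Gas5 by 264 bases on the other strand (chromosome 1, 161002922 to 161034864), had 46.2, 109 and 53.9 CPM in depleted libraries, against 119, 207 and 128 CPM in controls. The groups did not overlap, and replicate 2 was the highest library of each. Zbtb37 fell 2.26-fold in the paired fit (edgeR adjusted p = 3.14e-05), with an unpaired log2 fold change of -1.11 (SE 0.34, edgeR adjusted p = 0.239, DESeq2 adjusted p = 0.0397). Without a stated strand, reads in the overlap cannot be told apart from those of Gas5.

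**Figure D3:**
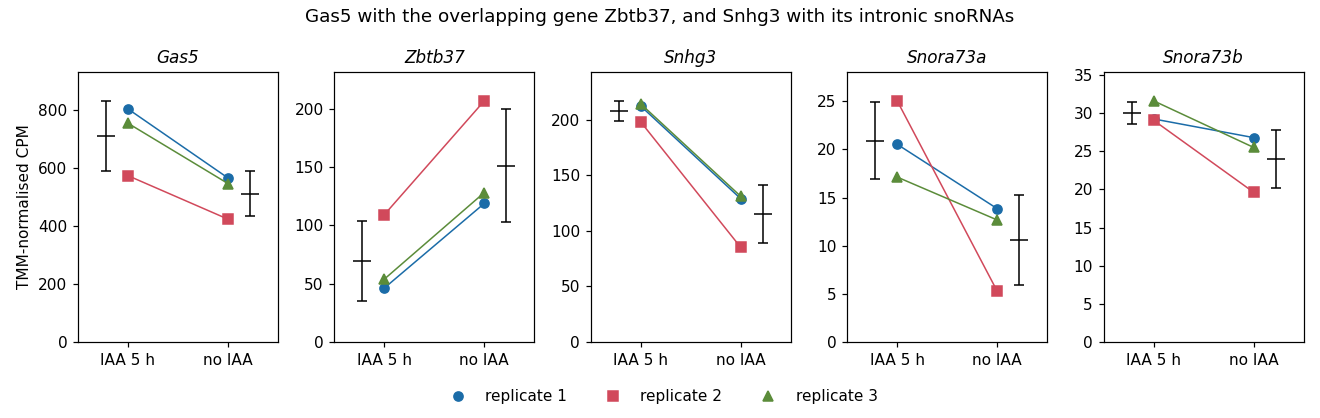
TMM-normalised CPM per library (vertical axes from 0, a different scale in each panel) of Gas5 with the overlapping gene Zbtb37, and of Snhg3 with its intronic snoRNAs Snora73a and Snora73b, with IAA for 5 h left of no IAA. Lines join replicate numbers and bars are mean and SD (n = 3). Gas5 lies higher in all depleted libraries (574 to 805 CPM) and Zbtb37 lower (46.2 to 109 CPM).

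The neighbours of other hosts did not pass a test. Slc3a2, the heavy chain gene of amino acid transporters, starts 118 bases from Snhg1 on the opposite strand and had 323, 269 and 360 CPM in depleted libraries, against 285, 226 and 345 CPM in controls (log2 ratio of the paired fit 0.16, SE 0.07, edgeR adjusted p = 0.160). Znfx1, a helicase-like zinc finger gene that overlaps the start of Zfas1 by 82 bases, had 84.7, 96.8 and 97.8 CPM in depleted libraries, against 84.8, 92.5 and 95.3 CPM in controls (log2 ratio of the paired fit, 0.03, SE 0.09, edgeR adjusted p = 0.852). Mcmdc2, at 1.61, 1.92 and 0 CPM in depleted libraries and 0.228, 1.59 and 3.14 CPM in controls, was too scattered to place (paired edgeR adjusted p = 0.948).

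Other noncoding snoRNA hosts lay higher by their median too. Of 12 rows tested, 10 had a log2 fold change above 0, the median was 0.27 and 0 were called without the block, with 1 at an unadjusted p under 0.05 and 0 called by DESeq2. In the paired fit 2 of 12 rose and 0 fell, beside 4.96% and 7.9% of all tested genes. One of the 2 rows of Snhg4 (ENSMUSG00000117869.1) had 501, 431 and 425 CPM in depleted libraries, against 383, 316 and 335 CPM in controls. It rose 1.31-fold (paired edgeR adjusted p = 0.00271), and all its depleted libraries lay above all controls. The other Snhg4 row had 11.7, 9.08 and 24.7 CPM in depleted libraries, against 13.5, 9.11 and 13.6 CPM in controls. That row was lower in the depleted library of 2 pairs and was not called (paired edgeR adjusted p = 0.592). Snhg20 had 68.6, 40.5 and 59.2 CPM in depleted libraries, against 55.4, 31.5 and 42.6 CPM in controls (paired 1.30-fold, edgeR adjusted p = 0.0382), and was not called by the paired fit with any pair left out.

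Protein-coding hosts, most of them ribosomal protein and translation factor genes, also had a median above that of all genes. Of 42 tested, 38 had a log2 fold change above 0 and the median was 0.20. Without the block 0 were called, with 1 at an unadjusted p under 0.05 and 0 by DESeq2. The paired fit held 13 that rose and 1, Nop58, that fell, where it called 4.96% and 7.9% of all tested genes. Ddx39b, a helicase gene of splicing and mRNA export, had 398, 308 and 384 CPM in depleted libraries, against 292, 213 and 296 CPM in controls (paired 1.37-fold, edgeR adjusted p = 0.00153), without overlap. Tnpo2, a nuclear import receptor gene, rose 1.32-fold (paired edgeR adjusted p = 0.00377), Prrc2a 1.26-fold (paired edgeR adjusted p = 0.00640) and the histone chaperone gene Nap1l1 1.23-fold (paired edgeR adjusted p = 0.0113). Prrc2a missed the threshold without pair 3 and Nap1l1 without pair 1. The difference between noncoding and coding hosts was not tested.

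**Figure D4:**
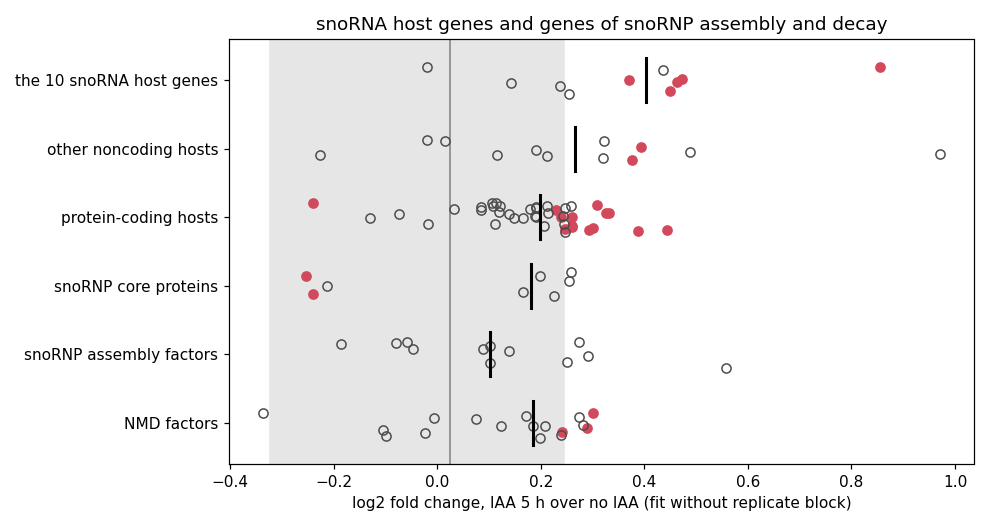
Log2 fold change of each tested gene, IAA for 5 h over no IAA, fit without the replicate block, for the 10 hosts and the related lists. Filled points passed the blocked fit (edgeR adjusted p under 0.05), open points did not, short black lines are list medians (0.40 for the 10 hosts), and the grey line and band are the median and interquartile range of all tested genes. The points are scattered vertically for legibility only.

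None of the genes for proteins that bind the finished snoRNAs was called higher, though 5 of 8 had log2 fold changes above 0 and 3 below. In all 3 pairs 4 were higher and 2 lower, against 24.2% and 24.1% of all tested genes. Of 8 core protein genes of box C/D and box H/ACA particles, with a median log2 fold change of 0.18, 0 rose and 2 fell in the paired fit. The shares of all tested genes in that fit were 4.96% higher and 7.9% lower. Without the block 0 of the 8 were called (0 at an unadjusted p under 0.05, and 0 by DESeq2). Dkc1, the pseudouridine synthase, had 229, 217 and 179 CPM in depleted libraries, against 258, 245 and 242 CPM in controls (paired 1.20-fold lower, edgeR adjusted p = 0.0484). All its depleted libraries lay below all controls. Nop58, a box C/D core protein, had 407, 519 and 340 CPM in depleted libraries, against 475, 571 and 449 CPM in controls (paired 1.19-fold lower, edgeR adjusted p = 0.0387), with overlap between groups. Dkc1 missed the threshold with any pair left out, and Nop58 passed only without replicate 2.

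Of 12 assembly factor genes, 0 were called in either edgeR fit or by DESeq2, and 0 had an unadjusted p under 0.05 without the block. The list's median log2 fold change was 0.10. Its largest values were those of Znhit3, at 0.56 (SE 0.25, edgeR adjusted p = 0.478), and Ruvbl2, a helicase of the particle-assembly chaperone, at 0.29 (SE 0.26, edgeR adjusted p = 0.758).

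Genes for NMD and exon junction complex proteins, which act on the spliced host RNAs, numbered 17. Of these, 3 rose and 0 fell in the paired fit, beside 4.96% and 7.9% of all tested genes. Without the block 0 were called, with 0 at an unadjusted p under 0.05 and 0 by DESeq2. Upf1, the central NMD helicase gene, had 300, 234 and 307 CPM in depleted libraries, against 253, 187 and 242 CPM in controls (paired 1.23-fold, edgeR adjusted p = 0.0148). Smg5, an adaptor gene of the decay step, had 417, 368 and 437 CPM in depleted libraries, against 354, 305 and 342 CPM in controls (paired 1.22-fold, edgeR adjusted p = 0.0164). Smg5 did not overlap between the groups, and Upf1 and Smg5 lost their calls when pair 3 was left out.

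Among 9536 other genes with a mean of at least 10 CPM, the profile most like the average of the 10 hosts over the 6 libraries was that of Txnip, the thioredoxin-interacting protein gene (Pearson r = 0.998). Cdc42se1, Carm1, Ppm1g and 2410002F23Rik came next, down to r = 0.995. Txnip had 354, 253 and 322 CPM in depleted libraries, against 273, 166 and 256 CPM in controls, with replicate 2 lowest in both groups as in the hosts. With 6 libraries and a shared scaling these values only describe the order of the genes.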

How the data were processed

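Estimated counts of reads per gene were used as deposited by the authors, as whole numbers for 6 libraries and 55401 rows. The submitters' processing notes list mm10 as the build and name DESeq2 1.42.0, StringTie 2.2.1 and HISAT2 2.2.1 without their roles. Such estimates can split reads between overlapping genes. Genes kept by filterByExpr (17573) were fitted in R 4.3.3 with edgeR 4.0.16 (TMM scaling, robust quasi-likelihood test, depleted over control, Benjamini-Hochberg over all genes, 0.05), checked on simulated counts, and with DESeq2 1.42.0 without a block. The SE follows from the fold change and its F statistic. Deviations from group means correlated at 0.268 to 0.387 between libraries of one replicate number and at -0.265 to -0.025 between others. Because deviations cancel within a group, positive values for equal numbers push the other values down. Numbers were taken as pairs on this basis, which does not establish that the libraries were made as pairs. The series text calls replicates independent but names no separate cultures, and the p-values cover only the spread seen among the 6 libraries. Scaling removes any change common to all RNA.

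Coordinates, biotypes and promoter sequences came from RefSeq tables of GRCm38.p6, the assembly of mm10, by symbol. The 10 genes and all lists were chosen with earlier results of these data known. Genes were named by a fixed choice: the 10 hosts, their snoRNA and neighbour rows, up to 4 called genes per list by paired adjusted p (or the 2 largest changes), and the 5 most alike. The 10-base window, the TATA-type hexamers, the snoRNA shares and the genes between Snhg12 and Snhg3 were added after seeing data. Alternatives were the block, DESeq2, other scalings, no filter and leaving out libraries or pairs. Some genes counted in the lists are not reported here by name.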

Additional observations from a re-analysis of the deposited data

How the results depend on the processing

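The 10 hosts called higher numbered 0 without the block, 5 in the paired fit, 5 to 6 in the paired fit without one pair and 1 with DESeq2, and 0 under either other scaling, without the filter and without any single library. None was called lower under any of these. Their median log2 fold change of 0.40 lay between 0.22 (without control replicate 2) and 0.51 (without control replicate 1) when one library was left out, and was 0.31 in the paired fit without replicate 2. Over all genes 2 were called higher and 137 lower, against 871 and 1388 in the paired fit, 239 to 605 and 686 to 1041 in it without one pair, 0 to 3 and 0 to 43 without one library, and 62 and 579 with DESeq2. In the paired fit the calls were 2 lower neighbours (2 also with DESeq2), 2 higher other noncoding hosts, and 13 higher and 1 lower protein-coding hosts. It also called 2 lower core proteins, 3 higher NMD factors and 1 higher embryonic stem cell marker. All of these were 0 in the unpaired fit, and leaving out single libraries from it gave 0 calls in these lists. The cause of these moves was not tested. Changes of sign were followed in the hosts, their tested snoRNA and neighbour rows, Zfp207, the genes between Snhg12 and Snhg3 and those named by the fixed choice. Of these, the log2 fold changes of 7 genes changed sign under at least one setting that left out a library or a pair. Snhg6 ran from -0.129 to 0.111 (0.016 in the paired fit without replicate 2) and Snord87 from -0.127 to 0.652. Mcmdc2 ran from -2.04 to 1.41 (-0.991 without control replicate 1 and 0.378 without control replicate 3). Znfx1 ran from -0.0126 to 0.0986 (and -0.0241 with total counts only). Trnau1ap ran from -0.147 to 0.249 (-0.020 in the paired fit without replicate 2) and Rcc1 from -0.265 to 0.0248. Zfp207 ran from -0.189 (without depleted replicate 2) to 0.751, staying above 0 in the paired fit with any pair left out (0.238 to 0.359). Some other list genes, such as Snhg11 and the Snhg4 row that was not called, changed sign as well. The TOP-like run near the start was in 5 hosts with at least 4 pyrimidines and in 1 with at least 6. Low counts limit the snoRNA rows above all, most of which had at most 5 counts.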
